A study of Homo sapiens with 4 samples.

Results

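The DDX and DHX genes encode RNA helicases, enzymes that use ATP to unwind RNA or to strip proteins from it. The genes were chosen by symbol alone, as DDX or DHX followed by a number and at most 1 letter, with no use of any measured value. Of the 14911 gene symbols in the count tables, 49 met this rule, 34 with a DDX symbol and 15 with a DHX symbol, and 94 of their transcripts were listed. Of the 49 genes, 29 averaged 50 counts or more over the 4 libraries (18 DDX and 11 DHX), as did 5320 of all genes. The other 20 helicases are given by their counts.

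The data are m6A-seq of poly(A) RNA from HEK293T, a human embryonic kidney cell line, after X-ray exposure. In m6A-seq, fragmented mRNA is sequenced as it is (input) and after pull-down with an antibody against N6-methyladenosine (m6A-IP). The cells carried either a control short hairpin RNA (shCTL) or an shRNA against ALKBH5 (genotype shALKBH5, libraries named shA5), and each of these populations gave an input and an m6A-IP, so that there were 4 groups of 1 library each. All 4 came from X-ray treated cells, with a dose of 10 Gy in the study's methods, and there was no unirradiated library. The hairpins were delivered with the lentiviral vector pLKO.1 and infected cells were selected with puromycin. The study's methods name several harvest times after X-ray exposure but not which one applies to these libraries, and the sources used here do not give which of the ALKBH5 hairpins the libraries came from. With 1 library a group no test was possible, so every interval below is a 95% interval for counting error only, and read duplicates are not independent molecules. The cell line is named from the labels and was not checked against marker genes.

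The members share a helicase core, and the names come from the amino acids of one of its motifs (DEAD for most DDX proteins, DEAH and related forms for DHX proteins). DEAD-box proteins mostly open short duplexes or clamp onto RNA, while DEAH-box proteins move along the strand. Between them they drive splicing, ribosome assembly, mRNA export, translation and decay, and some sense viral RNA. m6A is a methyl mark that a writer complex places mostly on GGAC-type sequences in mRNA, often in long exons and near stop codons, and ALKBH5 is an enzyme that removes it.

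To show what the antibody could have read in these mRNAs, the counted transcripts were searched on their own strand for GGACN with adenine, cytosine or thymine as the last base. Such sites cannot overlap one another. The sequences below are from the hg38 genome with Gencode v44. They are from the 5 helicases with the highest and the 5 with the lowest m6A enrichment, taken as the mean of the shCTL and shA5 values. Only sites with 10 bases of the same exon on each side were considered, so sites nearer an exon end were left out. Among these, the coding-sequence site closest to the stop codon is given in capitals. The runs of DDX54, DHX40 and DDX3X hold a second site in lower case.
DDX28: aagtcttccaGGACTagcatcctcg
DDX54: gggacagtcaGGACAggaagacaag
DHX8: gagggttaccGGACActgatcgacc
DDX56: acaaccctagGGACCtccagctgct
DHX38: gcactgactgGGACAtcgtcaggaa
DHX40: agaggacccaGGACCacagtgacac
DDX52: aactcaacctGGACAatgtcatcag
DHX9: tggctactttGGACAgggaagagga
DDX20: ttctgtatctGGACTatcagtcaaa
DDX3X: caagaggactGGACAtttcaaatgt

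The first 5 runs are from the highest helicases. The DDX28 site is at chr16:68021620-68021624 on the minus strand, in the only exon of the mRNA and 40 nt before the stop codon. The DDX54 site is at chr12:113161959-113161963 (minus strand, exon 18 of 20, 415 nt before the stop codon). The DHX8 site is at chr17:43522157-43522161 (plus strand, exon 22 of 23, 285 nt before it). The DDX56 site is at chr7:44568196-44568200 (minus strand, exon 12 of 14, 233 nt before it). The DHX38 site is at chr16:72108550-72108554 (plus strand, exon 23 of 27, 482 nt before it).

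The last 5 runs are from the lowest helicases. The DHX9 site lies closest to its stop codon, 25 nt before it, at chr1:182887405-182887409 in exon 28 of 28, and the DHX40 site lies 29 nt before it, at chr17:59607139-59607143 in exon 18 of 18 (both plus strand). The DDX52 site is at chr17:37625923-37625927 (minus strand, exon 8 of 15, 692 nt before the stop codon). The DDX20 site is at chr1:111765931-111765935 (plus strand, exon 11 of 11, 964 nt before it), and the DDX3X site is at chrX:41346522-41346526 (plus strand, exon 11 of 14, 470 nt before it). A coding site near the stop codon was thus found at both ends of the order. A match is a description of letters and does not show that the adenosine was methylated.

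Library totals were 2237819, 3944402, 1311390 and 3148119 counts, given as input then m6A-IP of shCTL followed by input then m6A-IP of shA5, and every set of 4 values below follows this order. The helicases took 0.843 to 1.07% of these counts. A gene at 3 counts has 1.34, 0.761, 2.29 and 0.953 CPM (counts scaled to equal library totals), so this floor is highest in the shA5 input. ALKBH5, the targeted gene, had 486, 1432, 145 and 589 counts, and its input CPM was lower in shA5 than in shCTL by a log2 change of -0.97 (interval -1.25 to -0.70).

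m6A enrichment was taken as log2 of the IP CPM over the input CPM, after 0.5 CPM was added to each. It is relative to the whole library, so 0 is a transcript that takes the same share of the IP as of the input, and a value below 0 does not mean that m6A is absent. The 29 helicases spanned -1.76 to 1.20 in shCTL and -2.38 to 1.38 in shA5. Their medians were -0.17 and -0.33, against -0.11 and -0.10 over all 5320 genes. At least 1.5-fold enrichment was reached by 3 helicases, DDX28, DDX54 and DHX8, in both populations. That is 10.3% of the helicases, where 22.5% of all genes reached it in shCTL and 24.3% in shA5. DHX8 in shCTL was close to the line, and its most counted transcript alone, at 0.55, fell short of it. An IP at or below 1/1.5 of the input was seen for 9 helicases in shCTL (31.0%, background 30.3%) and for 9 in shA5 (31.0%, background 31.7%). DDX18, DDX20, DDX21, DDX3X, DDX52, DHX40 and DHX9 were among these in both populations (7 helicases), DDX49 and DHX33 in shCTL, and DDX39A and DHX30 in shA5. The order of the helicases was close in the 2 populations, with a Spearman rho of 0.917 and a Pearson r of 0.942 over 29 genes (0.928 and 0.924 over 5320 genes). The points share the 4 libraries and their depth, and rho is a description across genes.

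**Figure D1:**
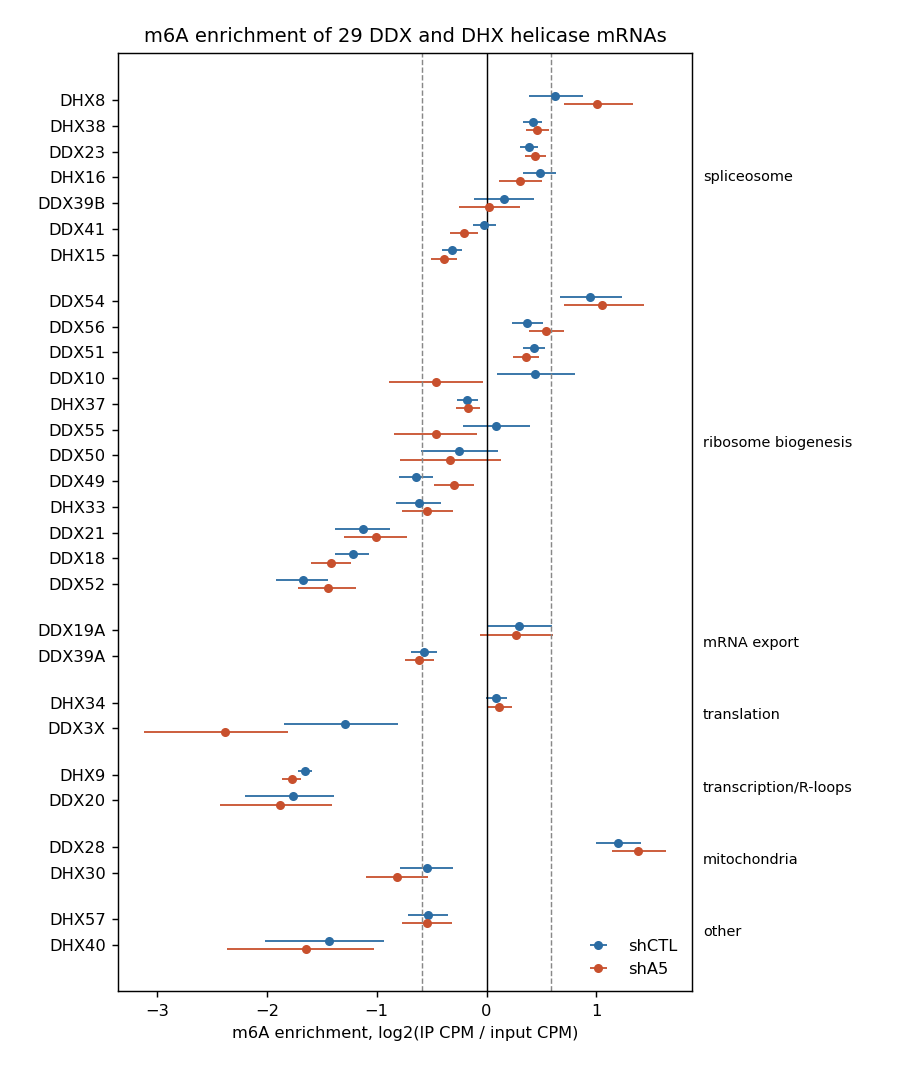
m6A enrichment (log2 of IP over input CPM, x axis) of the 29 helicases, grouped by role and sorted within each role, in shCTL (blue) and shA5 (orange), with 95% counting intervals as bars and dashed lines at 1.5-fold. DDX28, DDX54 and DHX8 lie at or above 1.5-fold in both populations, DDX20, DDX52 and DHX9 lie lowest in shCTL and DDX3X, DDX20 and DHX9 in shA5, and DDX10 and DDX3X show the widest gaps between the populations.

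Of the spliceosome helicases, 9 were listed and 7 could be measured, with a median enrichment of 0.38 in shCTL and 0.31 in shA5 and a range of -0.31 to 0.63 and of -0.39 to 1.01. None was at or below 1/1.5 (0 of 7 in either population, background 30.3% in shCTL and 31.7% in shA5), and 5 of 7 were above 0 in both populations, where 2420 of 5320 genes were above 0 in shCTL and 2465 in shA5. DHX8, which frees the finished mRNA from the spliceosome, had 84.5, 131, 80.1 and 162 CPM. Its enrichment was 0.63 in shCTL (interval 0.39 to 0.88) and 1.01 in shA5 (0.71 to 1.33), the highest of this role in both. DHX38, which remodels the spliceosome for the joining of exons, had 718, 961, 790.0 and 1089 CPM, and enrichments of 0.42 and 0.46. DDX23, which acts when U6 takes the place of U1 at the 5′ splice site, had 755, 985, 817 and 1113 CPM, and enrichments of 0.38 and 0.45. For both of these the IP was above the input in each population, by less than 1.5-fold.

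DHX16, which acts just before the first splicing step, had enrichments of 0.48 and 0.31. DDX39B, which serves both spliceosome assembly and mRNA export, had 0.16 and 0.02. DDX41, a helicase found in late spliceosomes and mutated in inherited myeloid neoplasms, had -0.02 and -0.21. DHX15, which takes spliceosomes apart, had the lowest enrichment among the measured members of the role, -0.31 (-0.40 to -0.22) and -0.39 (-0.50 to -0.27). DDX42 and DDX46, which act with the U2 particle, fell short of 50 mean counts and are not in these medians. Their enrichments were below 0, with -0.46 and -1.67 for DDX42 and -2.46 and -2.24 for DDX46.

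The ribosome biogenesis helicases ran from -1.67 to 0.94 in shCTL and from -1.45 to 1.05 in shA5. Of 16 listed, 12 could be measured, with medians of -0.21 and -0.39, 1 at least 1.5-fold enriched in each population (background 22.5% in shCTL and 24.3% in shA5), and 5 and 3 at or below 1/1.5 (background 30.3% and 31.7%). DDX54, a nucleolar helicase of large-subunit assembly, had 60.8, 117, 58.7 and 122 CPM, and its enrichment was 0.94 in shCTL (0.66 to 1.23) and 1.05 in shA5 (0.70 to 1.43). DDX52, a helicase of small-subunit assembly, had 188, 58.8, 192 and 70.2 CPM, and its enrichment was -1.67 (-1.91 to -1.44) and -1.45 (-1.72 to -1.19). The intervals of both leave out 0, on opposite sides. DDX18, another nucleolar helicase, had enrichments of -1.22 and -1.41.

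DDX56 and DDX51, both of large-subunit assembly, lay above 0 with 0.37 and 0.54, and 0.43 and 0.36. DHX37, which releases the U3 RNA from the small-subunit precursor, lay at -0.17 in shCTL and -0.17 in shA5, from 1535, 2398, 1017 and 2167 counts. DHX33, which acts on ribosomal RNA synthesis, had -0.62 and -0.54. DDX49, a small-subunit helicase, had -0.64 and -0.30. DDX10 and DDX55 lay on different sides of 0 in the 2 populations and are described with the changes. DDX24, DDX27, DDX31 and DDX47 fell short of 50 mean counts.

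Each of the other roles with measured members had 2. DDX28, which acts in assembly of the mitochondrial ribosome and has a single-exon gene, had the highest enrichment of the helicases, with 113, 259.6, 123 and 319.6 CPM and values of 1.20 (interval from 0.999 to 1.40) and 1.38 (1.14 to 1.63). Its mean enrichment was above that of 95.3% of all genes. DHX30, the other mitochondrial helicase, lay at -0.54 and -0.81. DHX9, which resolves R-loops and double-stranded RNA and works with RNA polymerase II, had 2228, 709, 2152 and 629 CPM. Its enrichment was -1.65 (-1.72 to -1.58) and -1.77 (-1.86 to -1.69), so the IP share was 0.318 of the input share in shCTL and 0.292 in shA5. DDX20, a partner of SMN in assembly of spliceosomal particles, had 69.3, 20.0, 65.6 and 17.5 CPM, and enrichments of -1.76 (-2.20 to -1.39) and -1.88 (-2.42 to -1.40).

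DDX3X, which helps ribosomes through structured leaders, had 34.9, 13.9, 51.9 and 9.53 CPM, from 78, 55, 68 and 30 counts. Its enrichment was -1.29 (-1.85 to -0.81) in shCTL and -2.38 (-3.11 to -1.80) in shA5, and its mean was above that of 2.91% of all genes. DHX34, a factor of nonsense-mediated decay, lay close to 0 at 0.09 and 0.12, with 1332, 2496, 828 and 2156 counts. The export helicases DDX19A, which releases mRNA at the nuclear pore, and DDX39A, which loads export factors, lay at 0.30 and 0.26, and at -0.57 and -0.61. DHX40 and DHX57, whose roles are less well known, lay at -1.43 and -1.65, and at -0.53 and -0.54. DHX40 was near the count limit, with 77, 49, 47 and 35 counts.

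The close pairs among the measured helicases did not share one level. DDX21 and DDX50 are neighbours on chromosome 10 and both nucleolar. DDX21 had 134, 61.1, 148 and 73.4 CPM, with enrichments of -1.12 (-1.38 to -0.88) and -1.01 (-1.29 to -0.73). DDX50 had 50.9, 42.8, 47.3 and 37.5 CPM, with -0.25 (-0.60 to 0.11) and -0.33 (-0.79 to 0.13). The intervals of the pair did not overlap in shCTL, and overlapped by a small stretch in shA5. DDX39A had 454, 305, 565 and 369.7 CPM and DDX39B 76.0, 84.7, 117 and 119 CPM, and their intervals of enrichment (-0.69 to -0.45 against -0.11 to 0.43 in shCTL) did not overlap in either population. Reads from stretches that such pairs share could have been assigned to either gene, and all bases of the counted DDX39B transcript also lie in the readthrough gene ATP6V1G2-DDX39B (100% on the same strand).

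The helicases with high enrichment had more GGAC-type sites and more G and C than those with low enrichment. The 5 highest helicases had a median of 5.41 sites per kilobase (3.77 to 7.17) and 55.8% GC, and the 5 lowest had 2.23 sites per kilobase (0.864 to 2.35) and 40.5% GC, so the site densities of these ends did not overlap. Over all genes measured the medians were 3.38 sites per kilobase and 51.4% GC. At least 1 site was present in all 29 measured helicases and in 99.3% of 5307 genes. Across the 29 helicases, mean enrichment had a Spearman rho of 0.592 with site density and of 0.574 with GC content, and across all 5307 genes rho was 0.293 and 0.377. Site density and GC content themselves had a rho of 0.832 over the helicases, so their parts in the relation cannot be told apart. These genes share the 4 libraries, and the 2 ends were chosen by enrichment, so all of this is a description.

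Single helicases departed from that order. DDX39A had 6.68 sites per kilobase and DHX30 6.40, among the densest, yet both were below 0 in the 2 populations. DDX28 had a middling density of 3.88 and the highest enrichment, and DDX49 had the highest GC content, 61.6%, with an enrichment below 0. DDX3X had the fewest sites per kilobase, 0.864, with 5 sites in 5789 nt. The length of the longest exon had a rho of -0.204 with enrichment over the helicases and of 0.069 over all genes. Of the 5 highest, DDX28 has a single exon of 2317 nt, while the longest exon of DDX56 has 276 nt.

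**Figure D2:**
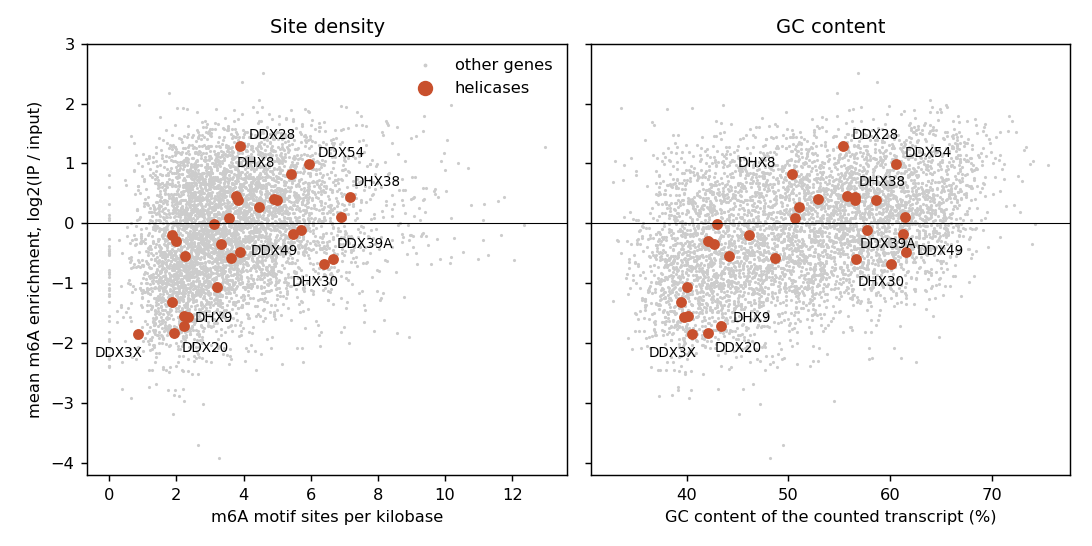
Mean m6A enrichment (log2, mean of shCTL and shA5, y axis) against GGAC-type sites per kilobase (left) and GC content in % (right) of the counted transcript, for 29 helicases (orange) and the other measured genes (grey). DDX3X, DDX20 and DHX9 lie at low density and low GC, DDX54 and DHX38 at high density, and DDX39A and DHX30 are dense but below 0.

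The shA5 and shCTL populations were then compared, first for input RNA. The inputs show whether an mRNA took a larger or smaller share of the poly(A) RNA, and in a bulk sample more cells with an mRNA and more of it per cell cannot be told apart. Of the 29 helicases, 1 was at least 1.5-fold higher in shA5 (3.45%, background 3.44%) and 0 were at least 1.5-fold lower (0%, background 6.43%). The median log2 change was 0.12, against -0.02 over all genes, and 21 of 29 helicases were above 0, against 2527 of 5320 genes. Among them, 9 helicases had an interval wholly above 0 (31.0%, background 12.9%) and 0 had one wholly below 0 (background 15.6%). The helicases had a median mean count of 423 against 182.5 over all genes, and the part of this depth in these counts was not tested.

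DDX39B had the largest input change of the helicases. It had 170, 334, 154 and 375 counts, or 76.0, 84.7, 117 and 119 CPM, and was higher in shA5 by 1.54-fold in the input, a log2 change of 0.63 (0.30 to 0.95). Its IP was higher as well, by 0.49 (0.28 to 0.71), so both shA5 libraries lay above both shCTL libraries in CPM. DDX3X followed with an input change of 0.57 (0.08 to 1.06), under the 1.5-fold line, but its IP differed the other way, by -0.53 (-1.24 to 0.12). DDX10 and DDX19A came next, with 0.38 (-0.08 to 0.83) and 0.36 (-0.02 to 0.74), and neither interval left out 0.

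Some better counted helicases were also higher in the shA5 input, by less. DDX56 differed by 0.32 (0.14 to 0.51) in input and 0.50 (0.39 to 0.61) in IP, with 255, 329.8, 319.5 and 466 CPM. DDX39A differed by 0.32 (0.18 to 0.46) and 0.27 (0.16 to 0.39). DDX51, DDX41, DHX37, DHX38 and DDX23 were higher in the shA5 input by 0.19, 0.18, 0.18, 0.14 and 0.11, each with an interval above 0, the lowest bound being 0.00 for DDX23.

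The lowest input changes were small. DDX50 differed by -0.11 (-0.58 to 0.35), DDX20 by -0.08 (-0.48 to 0.31), DHX8 by -0.08 (-0.44 to 0.27) and DHX9 by -0.05 (-0.12 to 0.02). DHX57, DHX15 and DHX16 differed by -0.05, -0.03 and -0.01, at mean counts of 423, 1669 and 736. The printed intervals hold 0, and that of DHX9 has a lower bound of -0.12. Of the 12 ribosome biogenesis helicases, 10 were above 0 with a median of 0.16, and of the 7 spliceosome helicases 4 were above 0 with a median of 0.11, beside 2527 of 5320 genes and a median of -0.02. The input change had a rho of -0.511 over the helicases, and of about 0 over all genes, with the share of a transcript's bases that no other coding transcript covers, a relation whose part in these values was not tested.

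The m6A enrichment of most helicases differed little between the populations. The median change, shA5 minus shCTL, was -0.04, against 0.00 over all genes, with 12 of 29 helicases and 2684 of 5320 genes above 0. None of the 29 (0%) was at least 1.5-fold higher in shA5, where the background was 5.38%, and 2 (6.90%) were at least 1.5-fold lower, where it was 5.09%. By intervals, 1 helicase lay above 0 (DDX49, background 8.59%) and 5 lay below 0 (DDX3X, DDX10, DDX55, DDX41 and DHX9, background 8.93%). The 2 lower helicases, DDX3X and DDX10, have few counts. A filter at a mean count of 200 leaves both out, so that 0 of the 23 helicases left were lower by 1.5-fold, which does not bear on these 2.

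With all reads, DDX3X had the largest decrease of the helicases. From 78, 55, 68 and 30 counts, its input was higher and its IP lower in shA5, and the enrichment change was -1.09 (-1.98 to -0.28), a ratio of 0.469. Only 0.414% of all genes had a lower change. Its counts were spread over 10 listed transcripts, and the one with most counts, ENST00000642424, had 31, 11, 29 and 6. The same direction was seen in ENST00000643821, with 17, 13, 26 and 4 counts, while ENST00000644677, with 10, 15, 3 and 7 counts, had enrichments of -0.21 (-1.48 to 1.08) and -0.03 (-2.17 to 2.54), with intervals that hold 0.

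DDX10, a helicase of ribosome assembly known from fusions with NUP98 in leukaemia, had 97, 233, 74 and 129 counts, or 43.3, 59.1, 56.4 and 41.0 CPM. Its enrichment was 0.44 in shCTL (0.10 to 0.80) and -0.46 in shA5 (-0.88 to -0.03), a change of -0.90 (-1.47 to -0.35) that is lower than in all but 1.20% of genes. The shCTL IP was the highest of its 4 libraries in CPM and the shA5 IP the lowest. The IP differed by -0.52 (-0.85 to -0.21), more than the input did in the other direction.

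DDX55, a helicase of large-subunit assembly, had 142, 266, 95 and 165 counts, with enrichments of 0.09 and -0.46 and a change of -0.55 (-1.04 to -0.07), just under 1.5-fold. DDX41 differed by -0.19 (-0.35 to -0.02), with an IP of 509 CPM in shCTL and 507 CPM in shA5 and the higher shA5 input named above. DHX9 differed by -0.12 (-0.23 to -0.02) at 4985, 2796, 2822 and 1979 counts, and DHX30 by -0.27 (-0.65 to 0.11). With the libraries thinned to the smallest total, the DHX9 change was -0.0087 on the log2 scale.

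The largest increases were below 1.5-fold. DDX49 had 293, 187, 294 and 239 CPM, with inputs that differed by 0.01 and an IP change of 0.35 (0.20 to 0.50), and its enrichment differed by 0.35 (0.11 to 0.58). DHX8 differed by 0.38 (-0.01 to 0.79), DDX52 by 0.22 (-0.13 to 0.58) and DDX28 by 0.18 (-0.14 to 0.50), and each of these 3 intervals holds 0. DDX28 and DHX8 belonged both to the 5 most enriched helicases and to the 4 largest increases. Both of these orders contain the shA5 enrichment, so they are not independent. In the thinned libraries the DDX52 change was -0.14, against 0.22 with all reads.

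**Figure D3:**
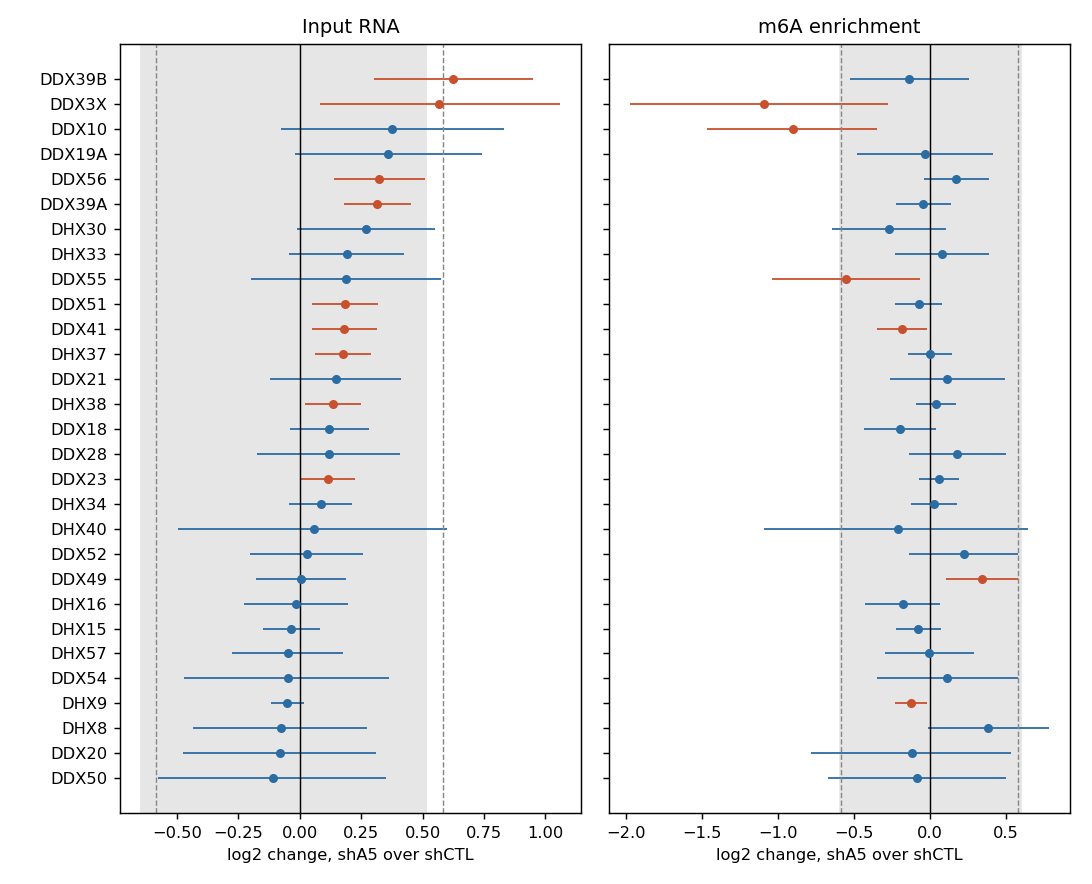
Log2 change from shCTL to shA5 (x axis) in input RNA (left) and m6A enrichment (right) for the 29 helicases, sorted by the input change, with 95% counting intervals as bars. Orange marks intervals that leave out 0, the grey band holds the middle 90% of all genes and dashed lines mark 1.5-fold. DDX39B lies past 1.5-fold in input, and DDX3X and DDX10 lie past it on the lower side in enrichment.

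In 5 helicases more than 1 listed transcript had at least 80 counts in all, which lets transcripts of a gene be set side by side. Of the bases of these 10 transcripts, 0 to 46.1% lie in no other coding transcript (0.023% in each DDX54 transcript), so the split of counts depends on how shared reads were assigned, which is not given in the sources used here. For DDX55, ENST00000238146 (14 exons, 2656 nt) had 100, 223, 51 and 115 counts, and ENST00000421670 (3 exons, 1574 nt) had 42, 43, 44 and 50. The long transcript was the more enriched, by 1.12 in shCTL (interval 0.38 to 1.87) and 0.98 in shA5 (0.18 to 1.79) on the log2 scale. Differences between transcripts, here and for the other genes, are conditional odds ratios of the counts without the added 0.5 CPM. They therefore depart somewhat from the differences of the printed enrichments. In the inputs, the short one made up 29.6% of the gene's counts for shCTL and 46.3% for shA5. The enrichment of the long transcript was 0.34 (-0.01 to 0.69) in shCTL and -0.09 (-0.58 to 0.41) in shA5, and that of the short one was -0.76 (-1.43 to -0.14) and -1.06 (-1.69 to -0.46). The intervals of each transcript overlap between the populations. Of the counted DDX55 transcript, 20.3% overlaps EIF2B1 on the other strand.

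For DDX39A, ENST00000242776 (11 exons) had 980, 1139, 718 and 1077 counts and ENST00000454233 (7 exons) had 35, 66, 23 and 87. Here the transcript with more counts was the less enriched, by -0.70 (-1.35 to -0.07) in shCTL and -1.33 (-2.08 to -0.64) in shA5. For DDX54 both transcripts have 20 exons and nearly the same length, and their enrichments were 0.92 and 0.94 in shCTL and 0.89 and 1.26 in shA5, with intervals of the difference that hold 0. Of the counted DDX54 transcript, 11.4% overlaps CFAP73 on the other strand. Whether the counting used strand is not given in the sources used here. The pair of DDX39B transcripts likewise had intervals that hold 0. For DHX8 the second transcript had 3, 34, 12 and 35 counts, few of them in the inputs. The difference between the transcripts, without the added 0.5 CPM, was -2.13 (-4.49 to -0.43) in shCTL and 0.80 (-0.33 to 1.85) in shA5. With 0.5 CPM added, the enrichments of the first and second transcript were 0.55 and 2.31 in shCTL and 1.08 and 0.27 in shA5.

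**Figure D4:**
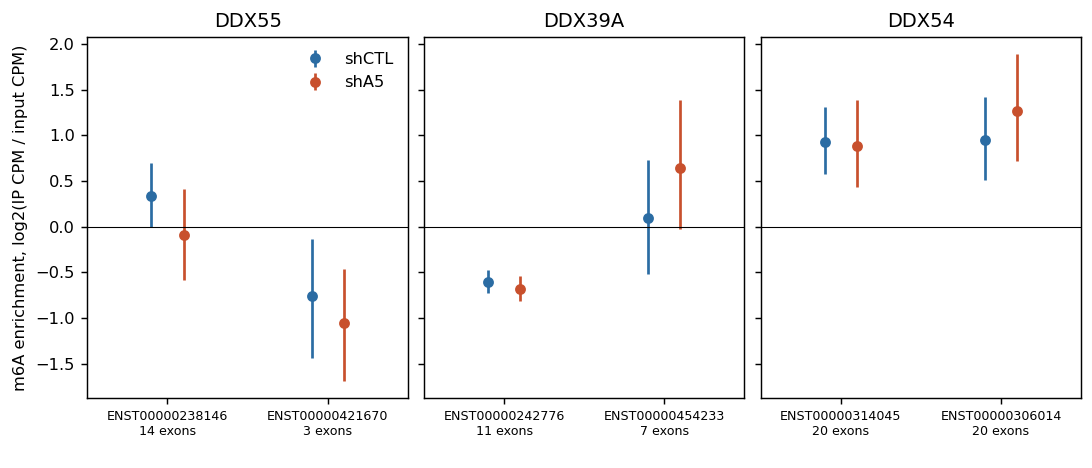
m6A enrichment (log2, y axis) of the listed transcripts of DDX55, DDX39A and DDX54 in shCTL (blue) and shA5 (orange), with 95% counting intervals. In DDX55 the 14-exon transcript lies above the 3-exon one, in DDX39A the 7-exon transcript lies above the 11-exon one, and in DDX54 the transcripts overlap.

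The input level per kilobase of transcript set DHX9 highest among the measured helicases, with 496 CPM per kilobase for shCTL and 479 for shA5. DDX39A had 303 and 377, and DDX41 had 246 and 279. DDX3X was lowest with 6.02 and 8.96, next to DHX40 with 9.62 and 10.03 and DDX54 with 13.9 and 13.4. DDX10, with 13.5 and 17.5, was below DDX54 in shCTL only. These levels should not be read as mRNA abundance, since genes known as abundant, such as DDX5 and DDX17, had very few counts.

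Of the 48 helicases that could be matched to Gencode v44, 14 had a counted transcript with under 10% of its bases outside other coding transcripts, and 9 of those 14 fell short of 50 mean counts (DDX1, DDX11, DDX17, DDX42, DDX47, DDX5, DDX58, DDX59 and DDX6). With 90% or more of the bases outside other coding transcripts, 9 of 9 helicases passed. Over all genes, 18.0% of those under 10% passed and 52.5% of those at 90% or more. The rule by which the authors' counting treated reads shared between transcripts is not given in the sources used here, and its part in these counts was not tested. DHX29, with 89.7% of its bases outside other transcripts, was at 1, 1, 0 and 0 counts.

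**Figure D5:**
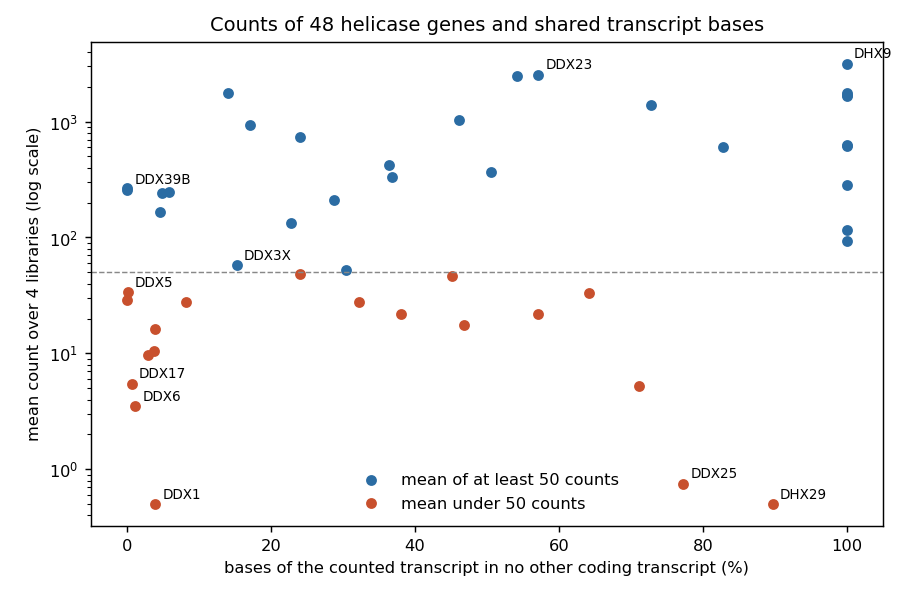
Mean count over the 4 libraries (y axis, log scale) against the share of bases of the counted transcript that lie in no other coding transcript (x axis, %), for 48 helicases that averaged 50 counts or more (blue) or fewer (orange), with a dashed line at 50. DDX1, DDX5, DDX6 and DDX17 lie low at the left, and the 9 helicases at 90% or more all lie above the line.

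Among the 20 helicases under 50 mean counts, 12 had a mean of 10 to 50 and 8 a mean under 10. DDX1, a part of the tRNA ligase complex, DDX25, a testis helicase, DDX27 of ribosome biogenesis and DHX29, which aids ribosome scanning, were at or under 3 counts in every library (4 helicases). DDX6, which acts in mRNA decapping and storage, had 5, 2, 4 and 3 counts, and DDX17, a transcription coregulator, had 3, 13, 2 and 4 counts. Its partner DDX5 had 55, 36, 29 and 15 counts. At this depth no fold can be read for the first 4, and the input changes of DDX5 (-0.85 to 0.52) and DDX17 (-3.40 to 3.31) are bounded only within these intervals.

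The sensors of foreign RNA had few counts. DDX58, which encodes RIG-I, had 19, 2, 18 and 0 counts, and 96.6% of its counted transcript lies in an unnamed gene on the same strand. With no count in the shA5 IP, the exact interval of the DDX58 enrichment there has no lower end and an upper end of -3.40. DDX60, an antiviral helicase, had 10, 6, 5 and 0 counts, and the same interval ends at -1.14. DHX58, which encodes LGP2, had 13, 40, 6 and 29 counts and lay on the other side, with enrichments of 0.75 (-0.13 to 1.83) and 0.94 (-0.28 to 2.57). The input changes were 0.66 (-0.32 to 1.70) for DDX58, -0.20 (-2.13 to 1.45) for DDX60 and -0.31 (-2.03 to 1.15) for DHX58, so a difference between the populations was not detectable at this depth.

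DDX19B, the near copy of DDX19A, had 46, 63, 16 and 60 counts, with enrichments of -0.35 and 0.62 and an input change of -0.73 (-1.67 to 0.10). DDX19A, at 138, 299, 104 and 300 counts, had an input change of the other sign, and 64.2% of its counted transcript lies in an unnamed gene on the same strand that also covers 21.7% of that of DDX19B. DDX46 had the lowest ratio in shCTL among helicases that averaged 20 counts or more, with 55, 16, 28 and 13 counts and an enrichment of -2.46 (-3.50 to -1.77), and DDX47 came next with 46, 15, 25 and 25 counts and -2.29 (-3.38 to -1.57). In shA5 the DDX47 enrichment was -1.21 (-2.12 to -0.40), and 99.7% of its transcript lies in APOLD1 on the same strand. DHX36, which unwinds G-quadruplexes, had 32, 12, 12 and 14 counts, with -2.06 and -0.96.

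The other low helicases were DHX32 with 34, 79, 22 and 60 counts, DDX31 with 31, 38, 30 and 33 counts, DDX11, a DNA helicase of sister chromatid cohesion, with 34, 35, 11 and 35 counts, and DDX24 with 27, 23, 21 and 17 counts. DDX42 had 20, 25, 12 and 8 counts and DDX59 10, 9, 5 and 18 counts. The intervals of the enrichment change hold 0 for each of these 6, and the widest of them, for DDX59, runs from -0.63 to 3.82. DDX3Y, DDX12P and DDX60L, the remaining close copies of DDX3X, DDX11 and DDX60, are not analysed here.

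Helicases that carry other names were set beside these from a list. Of 13 that were listed, 7 could be measured, with median enrichments of -0.96 in shCTL and -1.32 in shA5, and 6 of 7 were at or below 1/1.5 in both populations, as were 1400 of all 5320 genes (background 30.3% in shCTL and 31.7% in shA5). They were EIF4A1, a translation initiation helicase, SNRNP200, which unwinds U4 from U6, SKIV2L and MTREX of the RNA exosome, YTHDC2, a DExH helicase that also binds m6A, and ASCC3 of ribosome quality control. SUPV3L1 of mitochondrial RNA decay lay at -0.41 and -0.40. EIF4A3, the helicase of the exon junction complex, averaged 49.75 counts and so fell just short of the filter, and it lay above 0, at 0.37 (-0.22 to 1.01) and 0.97 (0.18 to 1.91), from 34, 78, 15 and 72 counts. YTHDC2 had 330, 248, 199 and 128 counts and enrichments of -1.22 and -1.89, a change of -0.66 (-1.08 to -0.26) that was the only one of the 7 past 1.5-fold. Its input change was 0.04 (-0.22 to 0.30) and its IP change -0.62 (-0.95 to -0.32). SNRNP200, which acts in the spliceosome, lay at -0.96 (-1.01 to -0.91) and -1.17 (-1.24 to -1.11). The spliceosome helicases of the rule lay on both sides of 0. DHX8, DHX38, DDX23, DHX16 and DDX39B were above it in both populations. DHX15, DDX41 and the less counted DDX42 and DDX46 were below it in both, as SNRNP200 was.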

How the data were processed

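Input and m6A-IP libraries of poly(A) RNA from X-ray exposed HEK293T cells with shCTL or shA5 were analysed (4 libraries, 1 per group). The files that the authors deposited hold raw read counts, 1 row for each Ensembl transcript with a count. They had used bcl2fastq 2.0, fastp 0.23.2, HISAT2 on hg38 and SAMtools 1.9, as given in the submitters' processing notes, and the paper names StringTie for quantification. The files do not name the program that wrote these counts, so StringTie was not taken to be their source, and the annotation behind them and the handling of shared reads are not given in the sources used here.

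Counts were summed per gene symbol (14911 genes, 28413 transcripts) and divided by library totals of 1311390 to 3944402 to give CPM. Enrichment was log2 of IP over input CPM with 0.5 CPM added, and a change was the shA5 minus the shCTL value. The 5320 genes that averaged 50 counts or more were used, with a threshold of 1.5-fold. Ratios have exact 95% conditional intervals (Clopper-Pearson, or the conditional odds ratio for changes of enrichment), and the share of all genes with an interval away from 0 used large-sample intervals for enrichment. The floor was 3 counts. Of the 28413 transcripts, 98.1% are in Gencode v44, as are 48 of the 49 helicases, whose most counted transcript gave length, GC content and sites. The steps were tested on simulated data.

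All helicases are accounted for. Those given in full are the 5 highest and 5 lowest in mean enrichment, the 4 largest changes in each direction of enrichment and of input, those whose interval of either change leaves out 0, the 3 highest and 3 lowest in input per kilobase, and close copies. Roles were assigned from general knowledge. The helicases, lists and alternatives were chosen with earlier results of these data known. Alternatives were edgeR 4.0.16 TMM factors, DESeq2 1.42.0 size factors, pseudocounts of 0.1 and 2 CPM, filters at mean counts of 10 and of 200 and none, a threshold of 2-fold, libraries thinned to the smallest total, and the most counted transcript alone. The tools were Python 3.11.15 (numpy 2.4.6, pandas 2.3.3, scipy 1.17.1, matplotlib 3.10.9) and R 4.3.3. Peaks, coverage and protein sequences were not used here.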

Additional observations from a re-analysis of the deposited data

How the results depend on the processing

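Scaling by TMM or DESeq2 factors and pseudocounts of 0.1 or 2 CPM left every count of helicases within 1.5 times its value. Medians were -0.18 to -0.17 in shCTL, -0.33 to -0.32 in shA5, -0.04 to -0.03 for the change of enrichment and 0.11 to 0.13 for input. The TMM and DESeq2 factors were estimated within the input pair and within the IP pair. The scale of IP against input, on which enrichment rests, was therefore not estimated anew, and its part was not tested. Of 276 values of 23 named helicases under the 6 alternatives that can alter them, 273 stayed inside their counting interval. The other 3 were changes of enrichment that moved when libraries were thinned to the smallest total: DDX39B to -0.56, DDX52 to -0.14 and DHX9 to -0.0087. Of the changes past 1.5-fold (DDX10 and DDX3X in enrichment, DDX39B in input), 0 turned direction. Some smaller changes did turn within their intervals. On thinning, enrichment changes went from -0.21 to 0.50 for DHX40, from -0.08 to 0.36 for DDX50 and from 0.12 to -0.14 for DDX21. With the most counted transcript alone, the DDX55 input change went from 0.19 to -0.20. The thinned DDX10 change of enrichment was -1.46, against -1.06 for DDX3X. With a mean of at least 10 counts (41 helicases), 16 lay at or below 1/1.5 in shCTL and 16 in shA5, 5 were enriched in shA5, 5 were higher and 5 lower in enrichment in shA5, and 2 were higher and 3 lower in input. With no filter (49 helicases), 5 were enriched and 19 depleted in shCTL, 6 and 20 in shA5, 6 were higher and 9 lower in enrichment change, and 4 higher and 5 lower in input; these added helicases have few counts. With a mean of at least 200 counts, 0 of 23 were lower in enrichment, since DDX3X and DDX10 fell under this filter. At 2-fold, 1 was enriched in shCTL, 1 was lower in enrichment (DDX3X) and 0 were higher in input. After thinning, the shCTL median was 0.02 instead of -0.17. It then lay above the -0.06 of all genes, where the main median lay below theirs. Also, 1 of 27 was lower in enrichment after thinning, and with the most counted transcript alone 1 of 28 was, in each case since DDX3X fell under the filter. With the most counted transcript alone, 2 were enriched in shCTL, since DHX8 was at 0.55 there. No paired analysis was possible because there is 1 library per group, and no library could be left out for the same reason. The changes of helicases with few counts in any library have the widest intervals.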
